A study of Mus musculus with 12 samples.

Results

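The comparison set 4 arrays of the line called TB14 against 4 arrays of the line called TB13, which together were 8 of the 12 arrays of the series. All 3 lines were mouse acute myeloid leukaemia cells grown with interleukin-3 and given no treatment. TB13 and TB14 were both labelled as expressing Trib1 and Bcl11a, and the third line, called Trib1, as expressing Trib1 alone. The labels name no animal, passage or culture behind the 4 arrays of a line, so the p-values measured only the spread between those arrays, which may be technical. TB13 and TB14 carry the same genotype label, so a difference between them is one between 2 lines and not between treatments. A gene entered when its probe set read above the median of the array on 4 or more of these 8 arrays, as 11065 of the 17097 named genes on the array did. The Trib1 line is given as a reference level only, without a test.

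Trib1 encodes a pseudokinase that brings the ubiquitin ligase COP1 to the transcription factor C/EBPalpha, which is then degraded. Bcl11a encodes a zinc finger protein that represses transcription, and Spi1 encodes PU.1, the myeloid factor that the series is concerned with. Maturing granulocytes make their granule proteins in a fixed order: the primary granule enzymes come first, in promyelocytes, and the secondary granule and cytosolic proteins of the neutrophil later. Outside maturation, leukaemia lines can differ in sterol, sugar and serine metabolism, and in the integrated stress response, in which kinases of eIF2alpha raise translation of ATF4, a factor that switches on amino acid transport, transfer RNA charging and the genes Ddit3 and Trib3.

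All values below are intensities after quantile scaling of the 12 arrays, with the mean ± SD of 4 arrays where an error is given, and differences are TB14 minus TB13 on the log2(value + 12.7) scale with their SE. A fold ratio is that difference turned back to a linear scale, so it understates the ratio of dim genes. Scaling mattered because the TB13 arrays stood apart. Their mean deposited intensity, after 2% was trimmed at each end, was 81.3 to 83.3, against 115 to 118 on the other 8 arrays. They were not dimmer throughout. Their deposited medians were higher, at 25.5 to 25.9 against 20.8 to 21.4, and their upper quartiles lower, at 71.8 to 72.5 against 102 to 109. The 18 hybridization controls, probe sets for foreign transcripts spiked into every sample on this platform, were brighter in TB14 than in TB13 by a median of 0.97 as deposited and differed from those of the Trib1 line by a median of 0.0010. Quantile scaling did not level these controls. The 6 that read under 100 units in TB13 remained higher in TB14, by 0.94 to 1.35, while the other 12 differed by -0.19 to 0.57. Of the 23 nonspecific control probe sets, the 18 with at most 20 G and C bases differed by -0.00035 to 0.057, but the one with 25 read 709.6 in TB13, 168 in TB14 and 169.8 in the Trib1 line, a difference of -1.99. Dim genes that were higher in TB14 moved the same way as the dim hybridization controls, and genes that were lower moved the same way as the G and C rich ones. The base content of the gene probes is not known here, the part of these shifts in the results was not tested, and array handling and line cannot be told apart, because every TB13 array is of 1 line.

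**Figure D1:**
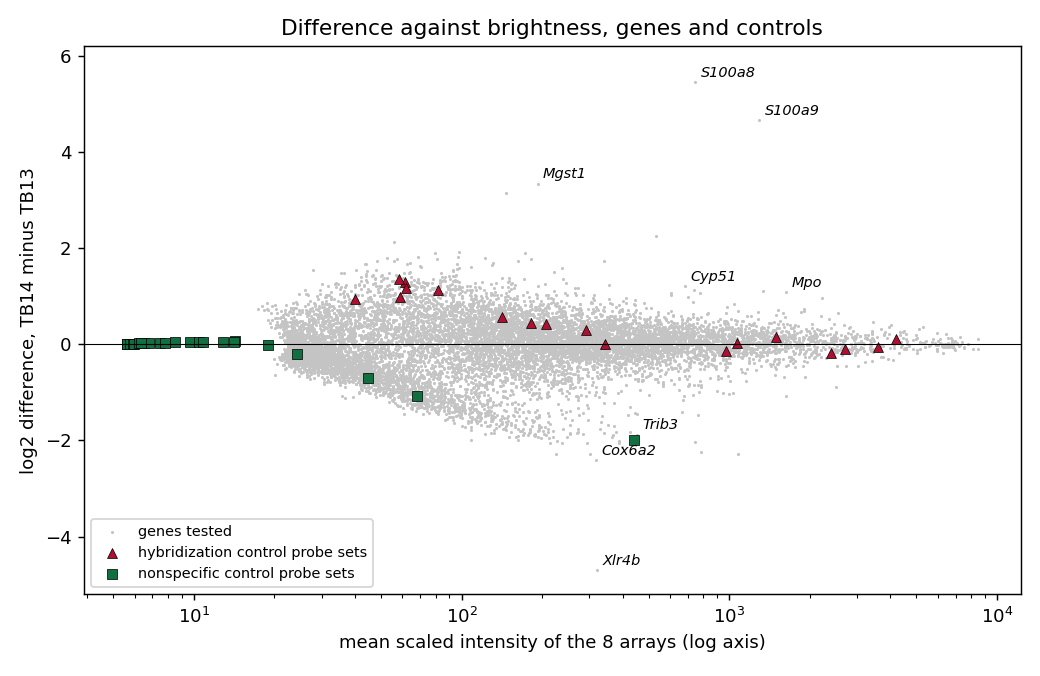
Each grey point is 1 of the 11065 genes tested, at its mean scaled intensity over the 8 arrays (log axis) and its log2 difference, TB14 minus TB13. Red triangles are the 18 hybridization control probe sets and green squares the 23 nonspecific ones. The dim hybridization controls lie up to 1.35 above zero and the nonspecific control richest in G and C at -1.99, and 76 genes lie above the first and 15 below the second.

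With limma and Benjamini-Hochberg adjustment at 0.05, 4255 genes were higher in TB14, or 38.5% of those tested, and 4642 were lower, or 42%. At 2-fold or more there were 324 higher (2.93%) and 629 lower (5.68%). The median difference of all genes was -0.014 after quantile scaling, 0.41 as deposited, -0.19 after median scaling, -0.037 after cyclic loess scaling and -0.51 after calibration on the hybridization controls. Calls were 47.8% higher and otherwise lower after quantile scaling, but 68.5% higher as deposited and 16.1% higher after that calibration. Under all 5 scalings together, 1225 genes were called higher (11.1%) and 2419 lower (21.9%), of which 191 (1.73%) and 629 (5.68%) differed by 2-fold or more after quantile scaling. Only 76 genes were called and higher by more than the most shifted control, and 15 were lower by more, or 0.687% and 0.136% of those tested. Genes named below as higher or lower were called in that direction under all 5 scalings unless the text says otherwise. The counts given for lists below are to be read beside these shares of all genes. They are 38.5% higher and 42% lower, or 11.1% and 21.9% under all 5 scalings. The filter let 245 genes in that lay at or below the median on every TB13 array and 296 that did so on every TB14 array, so a gene bright in 1 line alone could pass. Such genes stay in the counts and medians of the lists.

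Most of the large differences set TB13 apart from both other lines. Of the 324 genes at least 2-fold higher in TB14, 247 (76.2%) had a TB14 mean within 1.5-fold of the Trib1 line and a TB13 mean outside it, and of the 629 lower ones 584 did (92.8%). The reverse, with TB14 alone away from the Trib1 line, was seen in 52 higher and 26 lower genes. Among the higher genes 123 had a further probe set that passed the filter, and 148 of those further probe sets (84.1%) also read higher in TB14. For the lower genes the count was 209 of 298 (70.1%), and 29 of these 298 (9.73%) were themselves 2-fold lower.

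The introduced genes were dim. The 4 Bcl11a probe sets did not pass the filter and lay between 6.74 and 16.9 units on the 8 arrays, below the array median of 22.7. One of them was higher in TB14 without overlap (12.2 to 13.5 against 9.33 to 10.1), another was lower without overlap (8.58 to 10.07 against 10.2 to 11.1) and the other two overlapped, so these levels do not show whether the lines differ in Bcl11a. The brighter Trib1 probe set read 27.2 to 38.2 in TB13 and 27.7 to 30.6 in TB14, which overlapped (difference -0.063 ± 0.066, adjusted p = 0.38 by limma). Whether the introduced copies carry the stretches these probe sets read is not known here. Spi1 was at 384 ± 35.7 in TB13 and 374 ± 5.96 in TB14 against 501 in the Trib1 line, with overlapping values and no call (difference -0.034, adjusted p = 0.52). The C/EBPalpha gene Cebpa read 1222 ± 78.03 in TB13 and 1058 ± 14.4 in TB14, a difference of -0.20 that was not called in the same direction under every scaling. Of the genes tied to the study, Asb2, a substrate-binding subunit of a ubiquitin ligase, was lower in TB14, at 70.7, 66.9, 68.1 and 70.9 on its 4 arrays against 197, 175, 168 and 178 in TB13 and 331 in the Trib1 line (difference -1.23 ± 0.053, adjusted p = 5.0e-12 by limma). Clec5a, a C-type lectin receptor, and Fcgr3, a receptor for immunoglobulin G, differed by 0.31 and 0.034 and did not hold under every scaling.

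Both lines kept the pan-leukocyte and myeloid markers. The phosphatase Ptprc, known as CD45, read 1648 in TB13 and 1282 in TB14, and the signalling chains Tyrobp and Fcer1g 3025 and 1920 in TB13 against 2678 and 1551 in TB14. Csf2rb, the beta chain shared by the interleukin-3 receptor, read 1770 and 2129. These 4 genes differed by -0.36 to 0.27 on the log2 scale.

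Most members of the primary granule list read higher in TB14. Of 15 tested members of this list, 12 were called higher and 2 lower, with a median difference of 0.36 against -0.014 for all genes, and 7 held as higher under all 5 scalings and none as lower. Among the genes named below that held as higher, Mpo, Elane and Prtn3 encode granule enzymes, while Ms4a3, Hdc, Igsf6 and Gstm1 do not. Hdc also stands in the mast cell and basophil list. Mpo, the granule peroxidase, read 1041, 1026, 1045 and 1063 in TB13 and 2208, 2242, 2219.7 and 2195 in TB14, a 2.11-fold ratio (difference 1.08 ± 0.027, adjusted p = 8.9e-15 by limma). The Trib1 line was far below both, at 195 ± 8.85, so the 3 lines were ordered Trib1, TB13, TB14 without overlap. Elane, neutrophil elastase, followed the same order, at 54.04, 159 ± 19.1 and 373 ± 19.1 (difference 1.17). Prtn3, proteinase 3, stood at 1979 ± 47.7 in TB13 and 3128 ± 45.3 in TB14 (difference 0.66), with the Trib1 line level with TB13 at 1948. Ms4a3, a membrane protein of granulocyte and monocyte precursors, went from 1233 to 1936, and Hdc, which makes histamine, from 138.4 to 353. Igsf6 read 16.5 in TB13, 88.8 in TB14 and 25.99 in the Trib1 line, but all its TB13 values lie below the array median of 22.7, so it passed the filter only through TB14. Gstm1, a glutathione transferase that stands in this list and in that of oxidative stress, went from 142 to 288, but another of its probe sets read lower in TB14, 101 against 161. Ctsg, cathepsin G, was called higher by 0.36 but not under every scaling, while Cst7, a cystatin, and Ctsc, the protease that activates the granule enzymes, were called lower, with differences of -0.16 and -0.058, also not under every scaling, and a dim probe set of Ctsc read higher (29.1 against 16.8). The list's median difference of 0.36 lies within the range of the hybridization controls over 100 units in TB13, -0.19 to 0.57, and those under 100 units, the range of Igsf6, differed by 0.94 to 1.35. The part of that shift was not tested.

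Neutrophil genes that come on later were split, and the largest differences of the whole comparison were among them. S100a8 read 22.4, 24.9, 22.7 and 16.6 on the TB13 arrays and 1494, 1509, 1436 and 1454 on those of TB14, a 43.5-fold ratio (difference 5.44 ± 0.07, adjusted p = 3.0e-18 by limma). Of its TB13 values only 1 lies above the array median of 22.7, so the ratio rests on a TB13 level near background. Its partner S100a9, with which it forms the calcium-binding complex calprotectin, read 104, 74.8, 69.8 and 102 and 2601, 2479, 2442 and 2464 (difference 4.66 ± 0.089, adjusted p = 4.1e-16). The Trib1 line was above TB13 but far below TB14 for both, at 47.2 ± 3.58 and 145 ± 8.43, so the high level belonged to TB14 alone among the 3 lines. Lyz2, lysozyme, was at 461 ± 12.01 in TB13 and 1021 ± 13.9 in TB14 and 352 in the Trib1 line, and Hp, haptoglobin, at 42.9, 153 and 41.6. Ngp, a secondary granule protein, spanned 55.02 to 75.99 over the TB13 arrays and 168 to 179.8 over those of TB14, again with the Trib1 line low (51.1). Lcn2, the iron-siderophore carrier of the same granules, differed in another way: TB14 (286 ± 9.31) was near the Trib1 line (319) and TB13 was low (75.97 ± 18.4). The remaining defining genes of the secondary granule did not follow. Ltf, lactoferrin, had overlapping values (64.3 to 105 and 85.3 to 93.8, difference 0.12 ± 0.098, adjusted p = 0.29). Camp, the cathelicidin, was called higher by 0.37, from 35.1 to 48.98, but not under every scaling. Mmp8, the neutrophil collagenase, went the other way, from 398 ± 7.15 in TB13 to 183 ± 5.496 in TB14 (difference -1.07 ± 0.042), and Csf3r, the receptor for granulocyte colony-stimulating factor, was called lower, with a difference of -0.34, not under every scaling. Over the 22 tested members of the list, 12 were higher and 5 lower, and 9 and 2 held under all 5 scalings, with a median of 0.26. Stfa2l1, a stefin of the family expressed in neutrophils that was on no list, had the fourth largest difference among the genes higher in TB14, at 17.9 to 24.2 in TB13 and 266 to 277 in TB14, with 32.3 in the Trib1 line. Most of its TB13 values lie below the array median of 22.7, so that rank rests on a level near background.

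**Figure D2:**
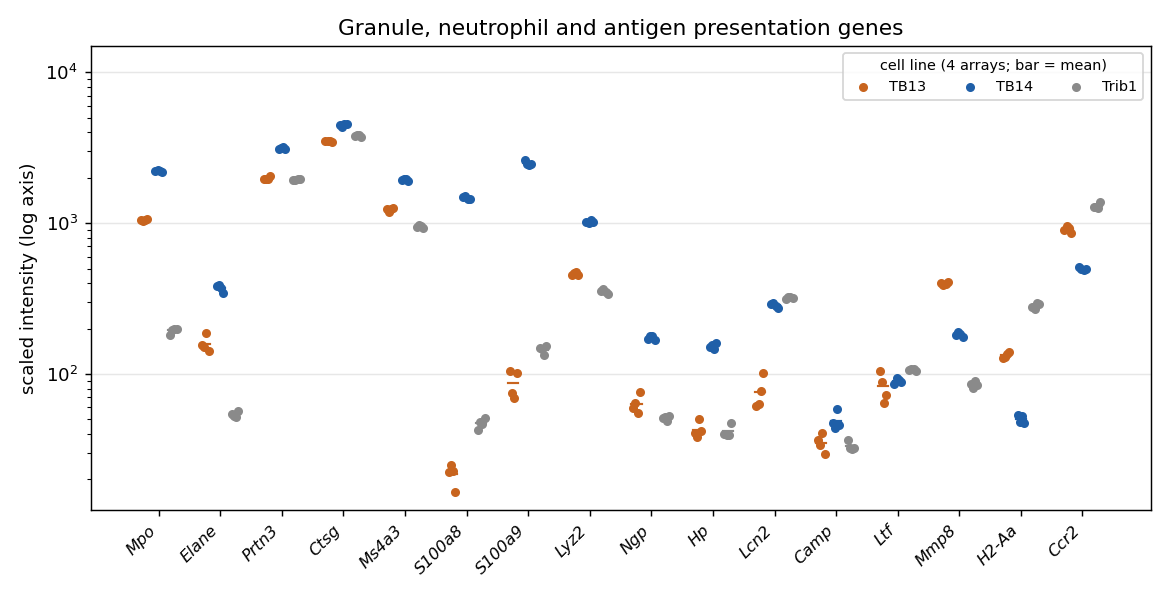
Scaled intensity (log axis) of 16 maturation genes on each array: orange TB13, blue TB14, grey Trib1, 4 points a line, with a bar at the mean. Mpo, Elane, S100a8, S100a9, Lyz2, Ngp and Hp are highest in TB14, Ltf overlaps between TB13 and TB14, and Mmp8, H2-Aa and Ccr2 are lower in TB14 than in TB13.

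The lists of monocyte genes and of antigen presentation genes held more members called lower than higher in TB14. Lyz2, Itgam and Tgfbi, which read higher in TB14, are given in other paragraphs and are not in the monocyte list. For monocytes and macrophages 12 of 21 tested members were lower and 7 higher (8 and 3 under all scalings), with a median of -0.20. The shares over all genes were 42% lower and 38.5% higher, and 21.9% and 11.1% under all scalings. Ccr2, the receptor that draws monocytes into tissue, read 899.9, 957, 924 and 865 in TB13 and 511, 497, 489 and 499 in TB14 (difference -0.85 ± 0.032, adjusted p = 1.1e-12 by limma), and the chemokine Ccl6 2043 and 1475. Both were higher still in the Trib1 line, at 1303 and 3226. Csf1r, which binds macrophage colony-stimulating factor, was called lower, with a difference of -0.40 and Adgre1, known as F4/80, with one of -0.20, neither under every scaling, while the lysosomal glycoprotein Cd68 had overlapping values with means of 201 and 219. Against the run of the list, Ly6c1, a surface protein of the Ly6 family, was higher at 2339 ± 38.1 against 1454 ± 48.8, Ms4a6b at 209 against 90.8, and Ctsb, cathepsin B, at 425 against 353.

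Genes of MHC class II and dendritic cells were lower or not called. Of 11 tested, 7 were lower, 6 of them under all scalings, and the median was -0.66. H2-Aa, which encodes the class II alpha chain, read 128, 129.7, 136 and 140.2 in TB13 and 53.2, 47.99, 52.9 and 47.5 in TB14 (difference -1.21 ± 0.054, adjusted p = 7.0e-12), and 283 ± 11.3 in the Trib1 line. The beta chain genes H2-Ab1 and H2-Eb1 had the same order, from 213 and 277 in the Trib1 line through 89.9 and 136 in TB13 to 46.3 and 58.8 in TB14. Other probe sets gave smaller steps from TB13 to TB14, 73.8 and 43.7 for H2-Aa and 54.6 and 39.7 for H2-Ab1. A further one of H2-Ab1 was not called, at 33.9 and 29.9 (adjusted p = 0.21 by limma). Cd74, the invariant chain, differed by -0.66, not under every scaling, and the integrin Itgax, known as CD11c, was lower at 54.7 against 110.3. The stepwise order with the Trib1 line highest sets these genes apart in pattern from most large differences, where TB14 lay near the Trib1 line.

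Progenitor genes showed no single direction. Of 24 tested, 6 were higher and 13 lower, with 5 and 5 under all scalings, and the list's median relative to all genes turned positive after calibration on the hybridization controls. Over all genes the shares were 38.5% higher and 42% lower, and 11.1% and 21.9% under all scalings. Cd34, a sialomucin of progenitors, was higher at 667 ± 8.995 against 521 ± 27.2, and the transcription factor Myb at 957 ± 36.99 against 799 ± 46.3. Kit, the stem cell factor receptor, was called higher by 0.23, although its values overlapped (332 to 419.8 and 418 to 447). Angpt1, angiopoietin 1, read 210.5 in TB13 and 338 in TB14. Hoxa9, a homeobox factor of progenitors and of many myeloid leukaemias, was lower at 47.1 to 49.4 against 98.1 to 128, with the Trib1 line at 51.98, and Mycn was lower at 1667 ± 10.7 against 2130.5 ± 35.96. Meis1, a cofactor of Hoxa9, was called higher by 0.70 at levels of only 19.1 and 38.9, not under every scaling.

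Among 37 tested myeloid transcription factors, 12 were higher and 17 lower, 4 and 5 of them under all scalings. Over all genes 38.5% were higher and 42% lower, and 11.1% and 21.9% under all scalings. The list thus lay near or below the background. Gfi1, a repressor required for neutrophil formation, rose from 48.8, 45.03, 37.8 and 33.1 on the TB13 arrays to 131, 128, 126 and 124 on those of TB14, and the Trib1 line was level with TB13 at 36.1 ± 1.83 (difference 1.39 ± 0.079, adjusted p = 1.3e-10 by limma). Cebpd, a C/EBP factor, was also higher in TB14 alone, at 133 ± 8.46 against 55.3 ± 16.02 and 60.7 in the Trib1 line. Id2, an inhibitor of E proteins, was higher at 259.8 against 193 but highest in the Trib1 line (944). Irf8, a factor of monocyte and dendritic cell fate, was dim and did not pass (37.1 ± 2.17 and 34.7 ± 2.503, adjusted p = 0.24). Egr1, an early response factor linked to macrophage fate, was called lower, with a difference of -0.50, not under every scaling, from 193 to 132 with 529.9 in the Trib1 line.

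Of 41 tested myeloid receptors 21 were lower and 14 higher, and 12 and 2 under all scalings, beside 42% lower and 38.5% higher over all genes and 21.9% and 11.1% under all scalings, so the list lay near the background. Cd300a, an inhibitory receptor, read 307, 307, 314 and 351 in TB13 and 108, 105, 101 and 106 in TB14 (difference -1.49 ± 0.042), below 489 in the Trib1 line. Lilrb4a, another inhibitory receptor, went from 1490.0 to 1022. Itgam, the integrin chain CD11b, was the main exception, at 29.5, 26.9, 24.9 and 39.99 in TB13 and 141, 137, 121 and 130.1 in TB14, with 224 ± 2.17 in the Trib1 line. The hyaluronan receptor Cd44 was higher as well, at 474 against 349. Of 5 tested genes of the phagocyte oxidase, 3 were called higher and 1 lower, and none held under every scaling.

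Some markers of other blood lineages, and some stromal and endothelial ones, read above the array median in both lines. Their part in the results above was not tested. The summed level of 12 mast cell and basophil genes was 9355 to 9614 over the TB13 arrays and 10100.0 to 10219 over those of TB14, led by Cpa3, the mast cell carboxypeptidase, at 6069.5 ± 136 and 6194 ± 37.3. Its members moved apart. Ms4a2, the beta chain of the receptor for immunoglobulin E, was higher in TB14 at 549.8 ± 15.4 against 341 ± 17.8, and Mcpt8, a basophil protease, at 1834 ± 18.9 against 842 ± 18.5. Fcer1a, the alpha chain of the same receptor, was lower at 128 ± 3.02 against 363 ± 20.3, and Tph1, which makes serotonin, at 236 ± 5.805 against 657 ± 38.1. For 27 lymphoid genes the sum was 9259 to 9508 in TB13 and 8665 to 8837 in TB14, for 19 erythroid and megakaryocyte genes 5022 to 5184 and 4222 to 4266, and for 17 stromal and endothelial genes 608 to 638 and 415 to 424. In the last list 8 genes exceeded the array median on all 4 TB13 arrays and 6 on all 4 of TB14.

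Cholesterol synthesis was the list with the largest median difference, 0.68 against -0.014 for all genes. Of its 17 tested members 15 were called higher in TB14 and 2 lower, and 13 and 1 held under all scalings. The 15 and the median include Lss and Hmgcs1, which passed the filter only through TB14. The pathway builds sterols from acetyl-CoA by way of mevalonate, and the factor SREBP2, encoded by Srebf2, switches on its genes when sterols are scarce. In order along the pathway, Hmgcs1, the synthase before mevalonate, read 11.1, 11.3, 8.04 and 8.38 in TB13 and 26.2, 25.6, 25.3 and 28.04 in TB14, which in TB13 is below the array median and not a call under every scaling. Idi1, which isomerizes the first isoprenoid unit, read 726 ± 43.4 and 1239 ± 20.1, and Fdps, which joins these units to farnesyl diphosphate, 1438 ± 48.5 and 2278 ± 22.1. At the entry to the sterol branch, Fdft1, squalene synthase, read 359 ± 14.4 and 616 ± 3.86 (difference 0.76), and Sqle, squalene epoxidase, 474 ± 11.7 and 682 ± 11.02 (difference 0.51). Lss, which closes the sterol ring, read 17.004, 22.4, 20.2 and 17.3 in TB13 and 91.4, 94.8, 93.6 and 90.5 in TB14. Its TB13 values all lie below the array median of 22.7, so it passed the filter only through TB14 and the size of its difference is not given. Cyp51, the lanosterol demethylase, read 405, 433, 377 and 421 and 949, 949, 987 and 948 (difference 1.21 ± 0.033, adjusted p = 2.1e-14 by limma), and another of its probe sets gave 217 and 528. The late enzymes Sc5d and Dhcr7 stood at 291 and 95.2 in TB13 against 533 and 202 in TB14. TB13 and TB14 did not overlap for any of these enzymes, and TB14 lay near the Trib1 line, which read 813 for Cyp51, 2356 for Fdps, 1539.7 for Idi1 and 140.3 for Lss. Of the 17 members, 13 were at least 1.5-fold lower in TB13 than in the Trib1 line on the log2(value + 12.7) scale, and Lss and Hmgcs1 are among these 13. Idi1 and Fdps differed by 0.76 and 0.66. The hybridization controls over 100 units in TB13 differed by -0.19 to 0.57 and those under 100 units, where Lss, Hmgcs1 and Dhcr7 lay, by 0.94 to 1.35, and their part in these differences was not tested. Against the list, Lbr, a sterol reductase that also anchors chromatin, was lower, with a difference of -0.16. Hsd17b7 was called lower, with a difference of -0.79, not under every scaling, and its other probe set read higher, 98.6 against 54.7.

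Regulators of sterol level varied among themselves. Insig1, which holds SREBP in the endoplasmic reticulum and is itself a target of it, read 108, 107, 113 and 106 in TB13 and 255, 243, 246 and 229.7 in TB14 (difference 1.08 ± 0.042, adjusted p = 1.5e-12 by limma), and 279 in the Trib1 line. For Srebf2 the brightest probe set was higher in TB14, 291 ± 8.92 against 157 ± 13.04, but its other probe set was lower, 114 against 155, so no direction is given for that gene. Scarb1, the receptor for high-density lipoprotein, was higher at 292 against 184, with 56.03 in the Trib1 line. Genes of sterol efflux and receptor turnover went the other way without holding under every scaling: the exporter Abcg1 was called lower, with a difference of -0.49 (a dim probe set of it read higher, 40.8 against 33.2) and Mylip, the ligase that degrades the LDL receptor, with one of -0.43. Of the 13 tested, 8 were called higher and 5 lower.

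The window before the start of Hmgcs1 is printed because it holds the short sterol element of this pathway. Among the 250 bases upstream of the start of each RefSeq gene (build GRCm38.p6), the motif TCACNCCAC or its reverse complement GTGGNGTGA was found in 280 of 27025 promoters (1.04%), in 1 of the 14 matched genes of cholesterol synthesis and in none of the 9 of sterol regulation. The match lies 137 bases before the start at chr13:119690188-119690247 (plus strand) and is in capitals.
Hmgcs1: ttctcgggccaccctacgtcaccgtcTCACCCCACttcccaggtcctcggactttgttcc

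Fatty acid genes also read higher. For synthesis and desaturation 13 of 20 tested were higher and 5 lower (9 and none under all scalings), with a median of 0.18. Acly, which makes cytosolic acetyl-CoA from citrate, went from 922 ± 16.6 in TB13 to 1397 ± 35.2 in TB14. Acaca, which makes malonyl-CoA, went from 239 to 310.3, and Fasn, fatty acid synthase, from 374 ± 26.4 to 442 ± 7.16 (difference 0.23). The desaturases Scd1 and Fads2 differed more, from 649 ± 43.7 and 469 ± 39.6 to 1021 ± 21.6 and 933 ± 30.4. In the Trib1 line Fads2 read 524 and Scd1 897, so that Fads2 was high in TB14 alone while Scd1 was low in TB13. The long-chain elongase Elovl6 read 287 and 417. Fatty acid oxidation had 12 of 18 tested genes higher and 3 lower (5 and none under all scalings). Cpt1a, which admits fatty acids to the mitochondrion, differed by 0.21, and Acadm, the medium-chain dehydrogenase, by 0.065, the latter not under every scaling. Hadh, the hydroxyacyl dehydrogenase, went from 449.5 to 643 and was highest in the Trib1 line (1052).

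Several glycolysis and hypoxia genes were high in TB14 alone. Of 23 glycolysis genes tested 16 were higher and 4 lower (7 and 3 under all scalings; median 0.24), and of 22 hypoxia genes 12 were higher and 6 lower (7 and 1; median 0.20). Bnip3, a mitophagy receptor induced by low oxygen, read 497, 505, 490.0 and 510.0 in TB13 and 1052, 1045, 1069 and 1058 in TB14 (difference 1.06 ± 0.023, adjusted p = 1.7e-15 by limma), with 415 ± 8.81 in the Trib1 line. Egln3, a prolyl hydroxylase that marks HIF for degradation and is itself induced by it, read 210.4, 181, 216 and 218 and 518, 492, 517 and 486 (difference 1.24 ± 0.051), and 218 ± 9.81 in the Trib1 line. For both genes TB14 stood above the other lines without overlap. Slc2a1, the glucose transporter GLUT1, went from 183 ± 11.96 to 387 ± 5.99, and the brightest probe set of Slc2a3, the transporter GLUT3, was lower at 895 ± 13.97 against 1339.5 ± 12.8, though 2 dimmer ones read higher in TB14 (89.6 against 37.7 and 51.8 against 23.0). Pfkl, the liver-type phosphofructokinase, read 163 ± 19.96 and 380.0 ± 12.05, while another of its probe sets gave 227 and 261, a far smaller difference of 0.19. Tpi1, triose phosphate isomerase, went from 1942 ± 30.4 to 2792 ± 24.3. Hk2, Pkm and Ldha, which encode a hexokinase, pyruvate kinase and lactate dehydrogenase A, were called higher by 0.098, 0.41 and 0.40, none under every scaling. Against the run, Ldhb, the B subunit, was lower at 63.6 ± 2.38 against 191 ± 15.996 with the Trib1 line at 62.1. Bhlhe40, a hypoxia-inducible repressor, was lower at 486 against 816, and Ndrg1 was called lower, with a difference of -0.68, not under every scaling.

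**Figure D3:**
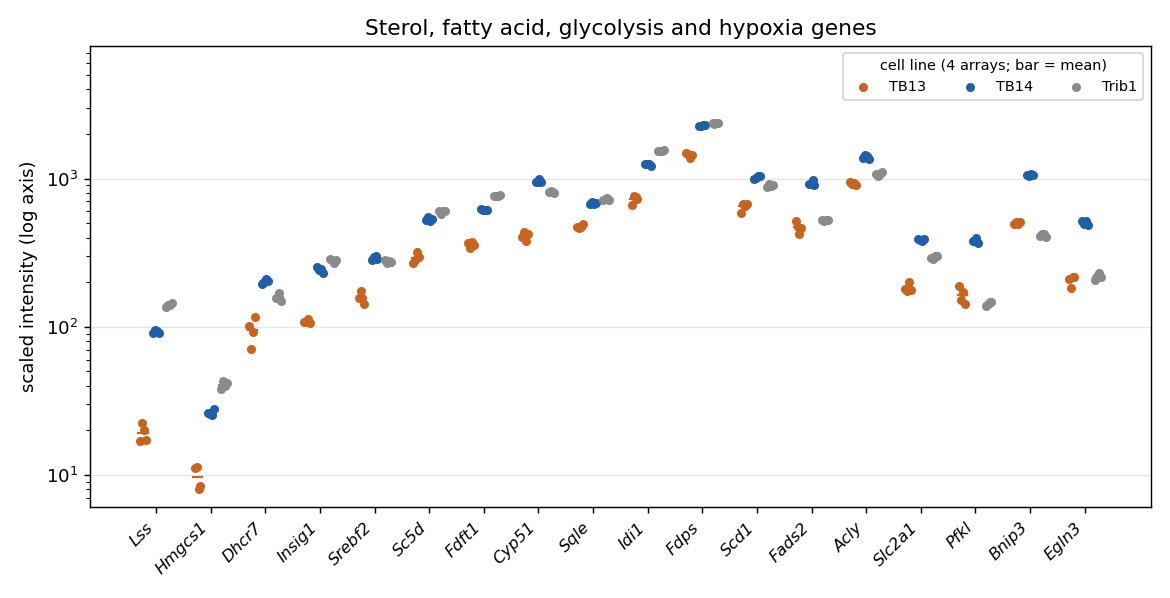
Scaled intensity (log axis) of 18 metabolic genes on each array: orange TB13, blue TB14, grey Trib1, 4 points a line, with a bar at the mean. For the sterol genes from Lss to Fdps the TB13 arrays are lowest and TB14 lies near the Trib1 line, while for Fads2, Pfkl, Bnip3 and Egln3 TB14 stands above both other lines.

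Mitochondrial lists had small differences. Of 23 genes of the tricarboxylic acid cycle 15 were higher and 4 lower, and of 67 of the respiratory chain 45 and 15, with medians of 0.12 and 0.12, and under all scalings the counts were 6 and 1, and 13 and 4. Idh1, the cytosolic isocitrate dehydrogenase, went from 457 ± 5.03 to 749 ± 11.5, and Sdhd, a membrane anchor of succinate dehydrogenase, was lower at 219.9 ± 6.998 against 452 ± 24.5. The citrate synthase gene Cs and the complex I subunit gene Ndufs1 were called higher by 0.10 and 0.20 and the cytochrome oxidase gene Cox5a lower, with a difference of -0.14, none under every scaling. Cox6a2, which encodes the heart and muscle form of a cytochrome oxidase subunit and was on no list, differed far more. It read 541, 541, 561 and 531 in TB13, 92.5, 89.9, 91.8 and 93.1 in TB14 and 460.4 ± 8.69 in the Trib1 line (difference -2.41 ± 0.031, adjusted p = 3.0e-18 by limma), so TB14 alone was low.

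The pentose phosphate and nucleotide list had 17 of 29 tested genes higher and 6 lower (7 and none under all scalings). Pgd, which makes NADPH in the oxidative branch, went from 744 ± 27.9 to 1344 ± 9.399, and Rrm1, the large subunit of ribonucleotide reductase, from 1189.5 ± 22.2 to 1804 ± 14.3. Among genes of haem and iron, 7 of 19 were higher and 8 lower, near the 38.5% and 42% of all genes. Alas1, the first enzyme of haem synthesis, read 529.6, 487, 504 and 513 in TB13 and 944, 971, 955 and 929.9 in TB14 (difference 0.89 ± 0.025), and 637 in the Trib1 line. Tfrc, the transferrin receptor that brings iron into the cell, read 1501 ± 45.2, 2939 ± 24.7 and 1942 in the same order (difference 0.96 ± 0.02, adjusted p = 1.0e-15), and its other probe sets gave 169 and 607, and 23.7 and 246. The lysosome list had 17 of 32 tested genes higher and 10 lower, and 10 and none under all scalings. Under all scalings 11.1% of all genes were higher and 21.9% lower. Gla, alpha-galactosidase, went from 235 to 426, while Lamp1 and Ctsd, which encode a lysosomal membrane protein and cathepsin D, were called lower, with differences of -0.21 and -0.073, not under every scaling.

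Genes of the integrated stress response were lower in TB14. Of 25 tested, 19 were called lower and 4 higher, with a median of -0.31, and 9 and 1 held under all scalings. Relative to all genes the median was -0.30 after quantile scaling but only -0.055 after calibration on the hybridization controls. Ddit3, which encodes the factor CHOP, read 627, 652, 673 and 665 in TB13 and 135, 143, 138.1 and 137 in TB14, a 4.41-fold ratio (difference -2.14 ± 0.036, adjusted p = 8.0e-17 by limma). Trib3, a pseudokinase gene of the same family as Trib1 that CHOP and ATF4 induce, read 716, 718, 699.6 and 733 and 183, 180.2, 189 and 187 (difference -1.89 ± 0.027, adjusted p = 1.4e-17). In the Trib1 line they stood between, at 307 ± 12.4 and 385 ± 3.53, so no array of 1 line overlapped another line. Nupr1, a small chromatin protein induced by stress, was at 429 ± 15.7 in TB13 and 164 ± 4.14 in TB14, and its other probe set at 417 and 142. Atf5, a factor of the same response, was at 240.4 to 245 in TB13 and 86.6 to 96.8 in TB14, with the Trib1 line level with TB13 at 244. Asns, asparagine synthetase, was at 2178 ± 67.6 and 1585 ± 27.7 with 2278 in the Trib1 line. Atf4 itself, whose control is chiefly by translation, differed by a small step, at 2836 ± 19.5 and 2415 ± 47.7 (difference -0.23 ± 0.016, adjusted p = 2.0e-09). The 4 members that went against the list were the genes of the eIF2alpha kinases, which included Eif2ak3, known as PERK, at 161 in TB14 against 81.2 in TB13. Eif2ak4, known as GCN2, was called higher by 0.90 at 60.9 and 124, not under every scaling.

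The 6 upstream windows below, from genes of the stress lists, are printed because they hold the short element to which ATF4 with C/EBP partners binds, TGATGNAA. It was found, on either strand, in the 250 bases before the start of 954 of 27025 RefSeq promoters of GRCm38.p6 (3.53%), and in 5 of the 22 matched integrated stress genes, 1 of 10 for amino acid transport and 2 of 13 transfer RNA synthetases. No match was found in 11 matched genes of the serine list. Of the 5 integrated stress genes, 3 are shown. Capitals mark the element, written as TTNCATCA where it lies on the other strand, and a second match of Slc7a11 stands in lower case in its window. The windows are chr6:7693210-7693269 (minus strand) for Asns, chr7:126625547-126625606 (minus) for Nupr1, chr8:94386291-94386350 (plus) for Herpud1, chr8:111033704-111033763 (plus) for Aars, chr6:55037941-55038000 (plus) for Gars and chr3:50443646-50443705 (minus) for Slc7a11.
Asns: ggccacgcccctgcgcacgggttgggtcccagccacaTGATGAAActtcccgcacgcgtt
Nupr1: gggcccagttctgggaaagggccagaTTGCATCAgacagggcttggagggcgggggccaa
Herpud1: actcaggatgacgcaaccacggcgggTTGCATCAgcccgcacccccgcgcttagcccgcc
Aars: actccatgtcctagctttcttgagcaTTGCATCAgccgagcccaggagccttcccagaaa
Gars: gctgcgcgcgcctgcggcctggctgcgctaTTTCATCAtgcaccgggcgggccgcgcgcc
Slc7a11: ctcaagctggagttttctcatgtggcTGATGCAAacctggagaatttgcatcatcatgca

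Other lists hold genes that ATF4 can induce. For amino acid transport 8 of 14 tested were lower and 4 higher, and 3 and 1 under all scalings, which is near the 21.9% and 11.1% of all genes. Slc7a5 and Slc3a2, which encode the light and heavy chains of a leucine transporter, went from 1154 ± 21.7 and 1963 ± 32.3 in TB13 to 708 ± 10.1 and 1493 ± 12.9 in TB14. The glycine transporter Slc6a9 was at 342 ± 21.01 and 163 ± 3.17. Slc7a11, the cystine importer, was dim at 25.7 ± 5.36 and 37.6 ± 1.61 and was called higher by 0.40, not under every scaling, and its window holds the element above. Of 19 transfer RNA synthetases 14 were lower and 3 higher, with a median of -0.27 and 5 and none under all scalings. Wars, for tryptophan, read 271 to 296 in TB13 and 143 to 149 in TB14, although its other two probe sets differed by only -0.21 and by -0.071, the latter not called (adjusted p = 0.17 by limma). Sars, for serine, read 1231 to 1309 and 739 to 746. Gars and Nars, for glycine and asparagine, were lower by smaller steps (-0.31 and -0.27). For Aars, for alanine, the brightest probe set was called lower, with a difference of -0.48 and another higher (604 against 521), so no direction is given. In serine and one-carbon metabolism 9 of 13 were lower and 1 higher (5 and none under all scalings, median -0.29). Phgdh, the first enzyme of serine synthesis, was at 1756 ± 68.8 in TB13 and 1226 ± 24.1 in TB14, with the Trib1 line near TB14 at 1182. Another of its probe sets gave a smaller step, from 1167 to 1077 (difference -0.11). Cth, which makes cysteine, read 280.0, 288, 294 and 253 and 91.8, 94.7, 94.7 and 103 (difference -1.42 ± 0.054) and 186 in the Trib1 line, and Aldh1l2, the mitochondrial folate enzyme, 196 ± 25.7, 61.8 ± 3.57 and 156. Psat1 and Shmt2, of the same route, were called lower, with differences of -0.16 and -0.32, not under every scaling. On calibration with the hybridization controls, the medians of the synthetase and serine lists relative to all genes turned positive. Beside these lower values stands the difference of -1.99 of the nonspecific control with 25 G and C bases. Ddit3 lay beyond that value, and Trib3, Nupr1, Cth and Aldh1l2 did not.

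**Figure D4:**
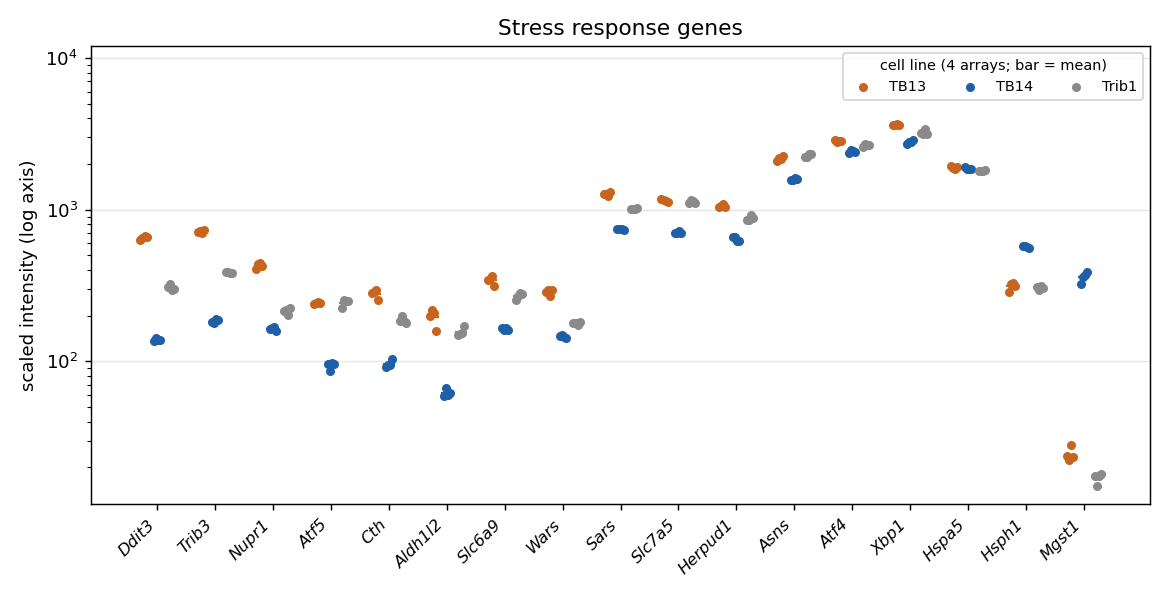
Scaled intensity (log axis) of 17 stress genes on each array: orange TB13, blue TB14, grey Trib1, 4 points a line, with a bar at the mean. From Ddit3 to Xbp1 all 4 TB14 arrays lie below all 4 TB13 arrays, Hspa5 overlaps, and Hsph1 and Mgst1 are higher in TB14.

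Chaperone genes of the endoplasmic reticulum did not follow the stress genes. Of 35 tested, 20 were higher and 9 lower (6 and 4 under all scalings; median 0.13). Hspa5 and Hsp90b1, which encode the main chaperones BiP and GRP94, read 1899.7 ± 36.2 and 2688 ± 98.4 in TB13 against 1862 ± 24.2 and 2649.7 ± 21.04 in TB14 and did not pass (adjusted p = 0.11 and 0.39 by limma). Another probe set of Hsp90b1 read higher in TB14, 1839 against 1447 (difference 0.34, adjusted p = 2.2e-11 by limma). No direction is given for that gene. Xbp1, a factor of the unfolded protein response, was lower at 2799 ± 72.1 against 3624 ± 25.5, and Herpud1, a membrane protein of degradation that ATF4 also controls, at 642 ± 21.6 against 1058 ± 28.2. Creld2 and Pdia6, which help fold secreted proteins, were higher at 257 and 1249 against 126 and 895. In the cytosolic heat shock list 14 of 22 were higher and 7 lower (4 and 3 under all scalings). Hsph1, a partner of HSP70, was higher in TB14 alone, at 568 ± 6.699 against 313 ± 18.7 and 305 in the Trib1 line, and Dnajb1 by 0.25. Hspa9, the mitochondrial HSP70, and the small heat shock protein gene Hspb1 were lower, with differences of -0.31 and -1.43, the second with the Trib1 line at 51.4, near 48.04 in TB14. Hsp90aa1 was called higher by 0.34, not under every scaling.

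Oxidative stress genes held 1 of the largest differences. Mgst1, a membrane glutathione transferase, read 23.8, 22.2, 27.9 and 23.2 in TB13 and 325, 357, 373 and 386 in TB14, a 10.1-fold ratio (difference 3.33 ± 0.069, adjusted p = 1.0e-15 by limma). Its TB13 values lie near the array median of 22.7, so the ratio rests on a TB13 level near background. The Trib1 line read 17.02 ± 1.395, so the high level was in TB14 alone. Gclm and Gclc, the subunits of the enzyme that limits glutathione synthesis, were higher at 981 and 679 against 827 and 523, and Gsr, which reduces glutathione, at 683 ± 11.8 against 468 ± 22.1. Txnrd1, a thioredoxin reductase, did not pass (difference 0.049, adjusted p = 0.063). Nfe2l2, which encodes NRF2, was called lower, with a difference of -0.20 and its target Nqo1 higher by 0.94, neither under every scaling. Over the list 18 of 33 were higher and 12 lower, 6 and 3 under all scalings, and its median relative to all genes was below zero as deposited. All genes had shares of 38.5% and 42%, and of 11.1% and 21.9% under all scalings.

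Among 30 genes of DNA damage and p53, 14 were higher and 8 lower, 8 and none under all scalings. All genes together had 38.5% higher and 42% lower, and 11.1% and 21.9% under all scalings. Cdkn2a, which encodes the tumour suppressors p16 and ARF, read 79.5, 80.1, 82.1 and 54.5 in TB13 and 216, 211, 192 and 217 in TB14 (difference 1.37 ± 0.085) but 651 ± 22.6 in the Trib1 line. The p53 targets Ccng1 and Zmat3 were higher at 1311 and 134 against 934 and 49.3. Probe sets of Cdkn1a, known as p21, disagreed, the brightest being higher in TB14 by 0.20 and another lower (408 against 474). Bbc3, the death gene PUMA, which CHOP can also induce, was called lower, with a difference of -0.86, not under every scaling, from 286 ± 8.76 to 152 ± 8.13. In the BCL2 family, 6 of 17 were higher and 8 lower, near the 38.5% and 42% of all genes. Bcl2 was called lower, with a difference of -0.55 and Mcl1 higher by 0.11, neither under every scaling.

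Immediate early, inflammatory and interferon genes had 13 of 24, 10 of 19 and 13 of 25 tested lower, and 6, 5 and 9 higher. Under all scalings 6, 4 and 7 were lower and none, none and 1 higher. These shares of lower genes lie near those over all genes, 42% and 21.9%, and the lists are described by single members. Myc was lower at 1552 ± 29.3 against 1970.1 ± 24.9, and Ier3, an early gene of survival, at 854 ± 15.001 against 1462 ± 111, with 2657 in the Trib1 line. Ccl5, a chemokine, read 426, 432, 448 and 423 in TB13 and 116, 118, 109.5 and 109 in TB14 (difference -1.83 ± 0.046) and 181 in the Trib1 line. Il1rn, the interleukin-1 receptor antagonist, was at 141 ± 6.53 and 60.1 ± 1.25, with 261 in the Trib1 line. Its other probe sets differed by only -0.16 and by -0.12, the latter not called (adjusted p = 0.085 by limma). Nfkbia, the inhibitor of NF-kB, did not pass (difference 0.025, adjusted p = 0.53), and Il1b, interleukin-1 beta, was lower (difference -0.26) although its values overlapped (34.5 to 59.02 and 36.4 to 39.5). Usp18, a brake on interferon signalling, was lower at 41.6 to 42.5 against 113 to 128, and highest in the Trib1 line (174.4). Mx2 and Oasl1, antiviral genes, were lower at 40.1 and 50.1 against 125 and 177, but in the Trib1 line both were at TB14's level (41.95 and 53.05). Ifi27 went the other way, from 56.6 to 202, with 224 in the Trib1 line.

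Cell cycle genes were higher in TB14 by small steps. Of 35 tested genes of DNA replication 27 were higher and 4 lower, and of 31 mitotic genes 25 and 2, with medians of 0.19 and 0.22, and under all scalings the counts were 13 and none, and 17 and none. Mcm2, a subunit of the replicative helicase, read 726 ± 41.2 in TB13 and 879 ± 20.3 in TB14 on its brightest probe set. Its other probe set was not called, at 667 and 641 (difference -0.056, adjusted p = 0.11 by limma). Mcm5, another subunit, read 588 ± 15.4 and 872 ± 12.3. Cdc6, which loads that helicase, went from 239 to 390.3. Cdk1, the mitotic kinase, read 833 ± 16.95 and 965 ± 8.32, Aurkb, of the chromosomal passenger complex, 444 ± 16.4 and 548 ± 14.8, and the mitotic kinesin Kif20a 135 ± 15.4 and 285 ± 14.05. Pcna, the polymerase clamp, was called higher by 0.27, not under every scaling. Ribosome biogenesis was mixed, with 12 of 31 higher and 10 lower, beside 38.5% and 42% of all genes. Npm1, nucleophosmin, differed by 0.099 on its brightest probe set and by -0.20 on another. Of 61 ribosomal protein genes 18 were higher and 29 lower, with a median of -0.018, and 1 held under all scalings.

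**Figure D5:**
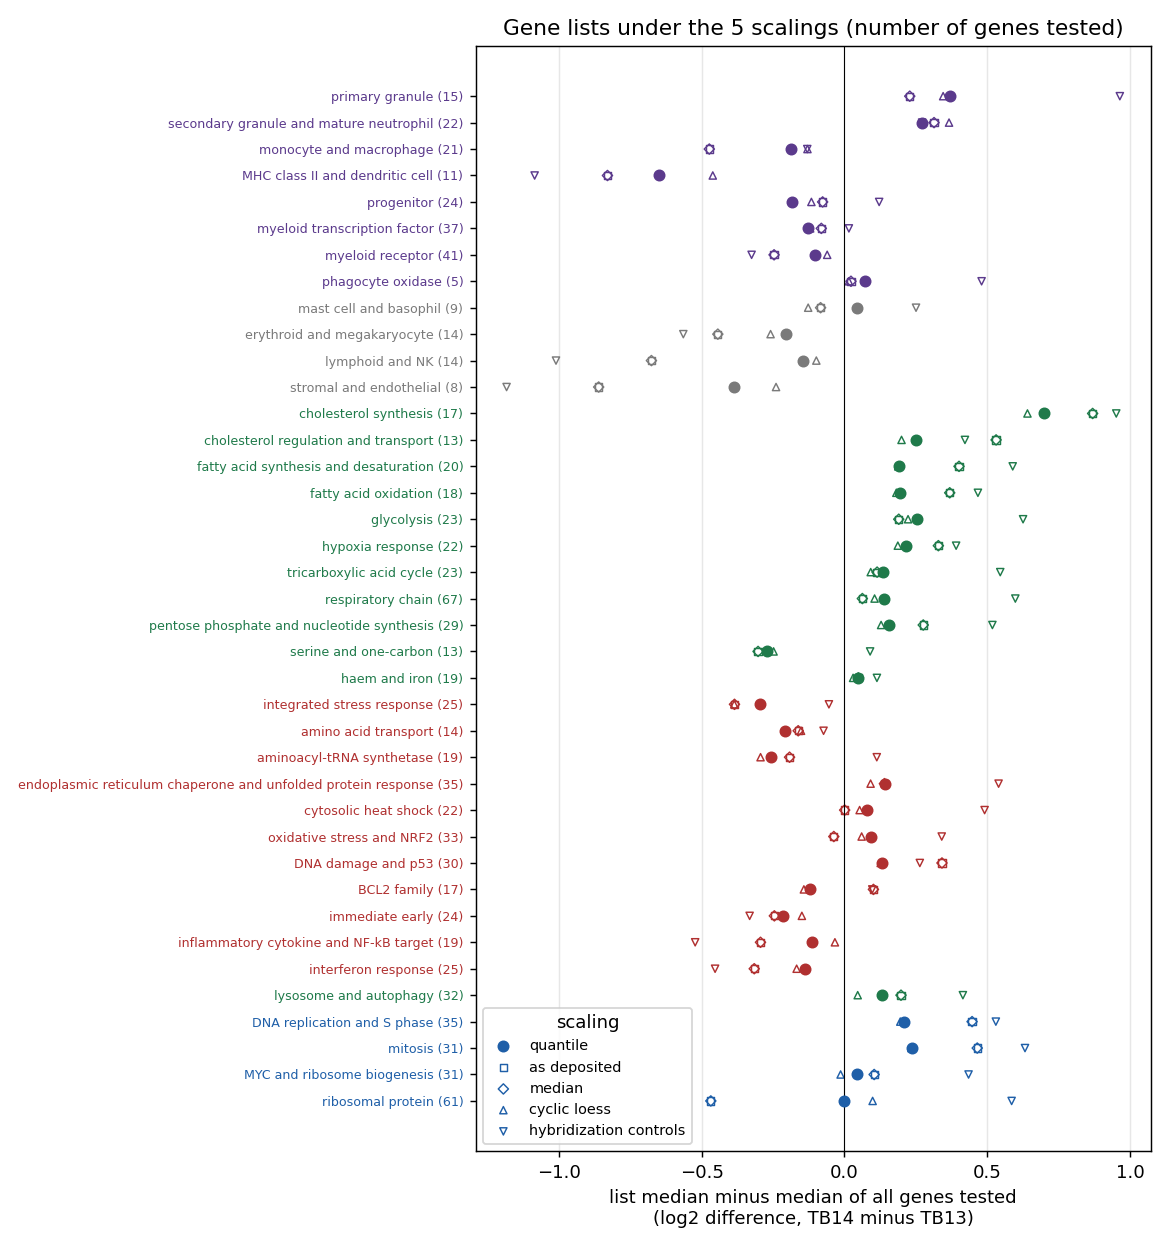
For each of the 39 gene lists, coloured by theme, the median log2 difference, TB14 minus TB13, of its tested genes less the median of all 11065 genes, after quantile scaling (filled) and under the other 4 scalings (open). After quantile scaling cholesterol synthesis lies farthest right and MHC class II farthest left among the maturation, metabolism and stress lists. The points of 30 lists stay on 1 side of zero under every scaling. The points for the deposited values and for median scaling coincide by construction.

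Outside these lists, the largest differences that held under all scalings without overlap included genes with no shared role. Xlr4b, of an X-linked lymphocyte-regulated family, was bright in TB13 and the Trib1 line alone: it read 597, 642, 650.4 and 623 in TB13, 11.8, 12.2, 11.6 and 11.9 in TB14 and 671 ± 18.9 in the Trib1 line, and all its TB14 values lie below the array median of 22.7. It passed the filter only through TB13, so the size of its difference is not given. Crip1, a small LIM protein, was higher in TB14 at 883 ± 9.45 against 177 ± 23.3, and Cnn3, calponin 3, at 257 ± 7.63 against 68.6 ± 6.21 and only 10.4 in the Trib1 line. Alox5, 5-lipoxygenase, which starts leukotriene synthesis, read 182, 134, 119 and 177 in TB13 and 538, 517, 540.2 and 512 in TB14, and 1476 ± 32.5 in the Trib1 line. Tgfbi, a matrix protein made by monocytes, had the same order at 18.9, 95.5 and 223. The remaining 9 of the 20 largest higher genes were Btnl9, Pex2, Ikbip, Ptgr1, Far2, Ift122, Coro1c, Mex3b and, of the lists above, Lcn2. In TB13 all values of Tgfbi, Btnl9 and Mex3b lie below the array median, so these genes passed only through TB14 and the sizes of their differences are not given. In Pex2, which encodes a peroxisome assembly factor, TB13 read 33.8 and the other lines 161 and 217.

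On the lower side TB13 was alone in most. Snrpn, an imprinted gene for a splicing protein, read 1292, 1307, 1234 and 1362 in TB13 and 263, 269.8, 266 and 254 in TB14, with 290.1 ± 16.1 in the Trib1 line, and another of its probe sets gave 993 and 211. Tcl1b3, of the Tcl1 oncogene family, read 1789 ± 24.96, 359.8 ± 11.2 and 424 ± 16.2 in that order. Fahd2a, Aif1l, Sbf2, Syp, Cysrt1, Clip4, Aplp2, Tff1, Krtap12-1, Kcnh3, Neo1, Zfp444, Lce1i, Lce1h and Sema6c completed the 20 together with the genes named above, and for each of these 15 the TB14 mean was within 1.5-fold of that of the Trib1 line. Their differences ran from -2.29 to -1.94. For Fahd2a another probe set read higher in TB14 (39.8 against 19.6), and the 4 other probe sets of Aplp2 disagreed: 2 read higher in TB14 (74.4 against 30.5 and 59.3 against 22.0), 1 lower (87.1 against 154) and the brightest of them was not called (292.4 against 288, difference 0.024, adjusted p = 0.60 by limma), so no direction is given for that gene. Several of these 15 genes are not known as blood cell genes: Syp encodes a synaptic vesicle protein, Kcnh3 a brain potassium channel, and Lce1i, Lce1h and Krtap12-1 proteins of the cornified skin and hair. Over all tested keratin, keratin-associated and late cornified envelope genes, 30 of 32 were called lower in TB14, 12 of them by 2-fold or more, and the median levels were 55.2 in TB13, 33.0 in TB14 and 33.2 in the Trib1 line. Their median difference was -0.63, and the nonspecific controls with 23 to 25 G and C bases differed by -0.69, -1.07 and -1.99. The part of that shift in these genes was not tested.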

How the data were processed

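RNA of 3 lines was measured on 12 Affymetrix arrays, 4 a line, giving 1 intensity per probe set, which the authors deposited as linear intensity values made with MAS5, per the submitters' processing notes; no version or settings are given. Of 45141 probe sets, 28898 had 1 gene symbol in the platform annotation, 551 several and 15588 none. The 12 arrays were quantile scaled, probe sets above the array median on at least 4 of the 8 TB13 and TB14 arrays were kept, and the brightest stood for its gene. A 3-line fit on log2(value + 12.7) was made with limma 3.58.1 (R 4.3.3, trend on mean level, Benjamini-Hochberg adjustment, threshold 0.05). The offset is the lower quartile (25%) of the deposited values.

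Named genes were those tied to the study, the 20 largest differences each way that hold under 5 scalings without overlap (clone identifiers passed over), each list's defining members, up to 8 of its other largest and up to 4 that go against it, of which the text gives a part. Members and lists were chosen with earlier results of these data known. On simulated data for TB14 against TB13 (11065 genes), 64% of genes changed 1.2-fold, 98% of those changed 1.5-fold and 100% of those changed 2-fold or 4-fold were recovered, with 9 false calls. The simulated arrays held independent noise and no shift of whole arrays between lines, unlike the TB13 arrays. These figures therefore do not measure the error that such a shift brings. Alternatives were other scalings, filters, offsets, variance model, probe set choice, a replicate block and each array left out; same-numbered arrays did not deviate together. Figures were drawn with matplotlib 3.10.9.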

Additional observations from a re-analysis of the deposited data

Results flagged for a closer look

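Among the genes named, 27 of 412 groups of 4 arrays (6.55%) had an array whose scaled value stood apart from the other 3 by Dixon's test, which chance flags in about 1 in 20 groups. The array stood low for Aars at 739 on TB13 array 2 (others 769.8 to 772), Abcg1 at 527 on TB14 array 3 (others 547 to 549), Acaca at 228 on TB13 array 4 (others 241 to 243), Atf5 at 86.6 on TB14 array 2 (others 95.3 to 96.8), Btnl9 at 11.1 on TB13 array 1 (others 13.5 to 13.8), Cdkn2a at 54.5 on TB13 array 4 (others 79.5 to 82.1), Clec5a at 122 on TB14 array 4 (others 129 to 130.5), Clip4 at 80.8 on TB14 array 3 (others 85.7 to 86.4), Coro1c at 36.3 on TB13 array 4 (others 49.95 to 53.2), Crip1 at 142 on TB13 array 2 (others 186 to 192), Gclm at 801 on TB13 array 2 (others 835 to 836), Hsp90aa1 at 3098 on TB14 array 1 (others 3129 to 3135), Hspa9 at 1608 on TB13 array 2 (others 1645 to 1651), Idh1 at 449.6 on TB13 array 3 (others 459 to 461), Idi1 at 1209 on TB14 array 4 (others 1245 to 1251), Ldhb at 60.1 on TB14 array 4 (others 64.4 to 65.2), Mex3b at 77.9 on TB14 array 3 (others 81.9 to 82.7), Ndrg1 at 145 on TB14 array 1 (others 157 to 159), Npm1 at 4372 on TB13 array 3 (others 4431 to 4438) and Pex2 at 150.0 on TB14 array 4 (others 163 to 166). It stood high for Aars at 552 on TB14 array 4 (others 539.7 to 542), Btnl9 at 110.1 on TB14 array 1 (others 94.4 to 96.95), Cd300a at 351 on TB13 array 4 (others 307 to 314), Cyp51 at 987 on TB14 array 3 (others 948 to 949), Hspb1 at 187 on TB13 array 4 (others 137 to 142), Irf8 at 38.5 on TB14 array 4 (others 33.1 to 33.8) and Mylip at 293 on TB13 array 4 (others 259 to 264).

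The array also carries 3 control probe sets for the transferrin receptor, which were outside the comparison of genes. Their means in TB14 were 467.3, 170.6 and 161.7, against 77.7, 21.5 and 22.0 in TB13 and 151.7, 48.4 and 49.96 in the Trib1 line, and they moved in the direction of Tfrc.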

How the results depend on the processing

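The counts of calls depended on the scaling between arrays. As deposited, 7051 genes were called higher in TB14, with 1658 at 2-fold or more, against 136 lower at 2-fold or more. Median scaling gave 108 higher and 1945 lower at 2-fold or more, and cyclic loess 147 higher. Calibration on the hybridization controls gave 1496 higher and 7818 lower, with 16 and 3890 at 2-fold or more. A pseudocount of 1 gave 540 genes 2-fold higher, and one of 50 gave 56 higher and 252 lower, the offset being what damps or widens the fold of dim genes. Among genes above the median by mean level, 2430 were higher and 1951 lower (67 and 231 at 2-fold or more), with fewer genes tested. Counted beyond the most shifted controls there were 76 and 15. Both of these settings were chosen after seeing the data. With the replicate block 4242 genes were higher and 4610 lower, with 324 and 629 at 2-fold or more; same-numbered arrays of TB13 and TB14 deviated together with correlations of -0.024 to 0.0415, so they share only a number, and 1 of 4 TB13 arrays correlated best with its own number. Leaving out each array in turn gave 4108 to 4315 higher and 4471 to 4668 lower genes, and 308 to 361 and 606 to 674 at 2-fold or more. The other settings (8 arrays only, no filter, a filter on all 8 arrays, no variance trend, the mean of probe sets) kept each of the 4 counts within 1.5-fold. Of 39 lists, 30 kept the sign of their median relative to all genes under the 5 scalings and 27 under every setting. Median scaling shifts each array by a constant. Relative to all genes it therefore repeats the deposited values by construction and is no separate check of a list.

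Over the 206 genes named, 4146 of 4271 comparisons with another setting kept direction and side of the threshold, 44 lost the call, 23 gained it and 58 turned sign. On the values as deposited the log2 difference turned sign for Aars 0.099, Abcg1 0.088, Adgre1 0.50, Bcl2 0.097, Cd74 0.0099, Cebpa 0.18, Cpa3 -0.0058, Cst7 0.095, Ctsc 0.16, Ctsd 0.15, Egr1 0.24, Hsp90b1 0.076, Hspa5 0.18, Lamp1 0.27, Mylip 0.35, Ndrg1 0.090, Nfe2l2 0.42, Psat1 0.0070, Shmt2 0.11 and Spi1 0.73. After median scaling the log2 difference turned sign for Camp -0.27, Cpa3 -0.60, Cs -0.075, Ctsg -0.23, Fcgr3 -0.0058, Hsp90aa1 -0.13, Ldha -0.19, Ltf -0.060, Mcl1 -0.086, Meis1 -0.031, Npm1 -0.55, Pcna -0.26, Slc7a11 -0.33, Spi1 0.13 and Txnrd1 -0.036. After cyclic loess scaling the log2 difference turned sign for Ltf -0.055, Trib1 0.065 and Txnrd1 -0.012. After calibration on the hybridization controls the log2 difference turned sign for Acadm -0.017, Camp -0.92, Cd68 -0.13, Clec5a -0.27, Fcgr3 -0.053, Hmgcs1 -0.57, Ltf -0.64, Meis1 -0.70, Nfkbia -0.14, Nqo1 -0.019, Slc7a11 -0.999 and Txnrd1 -0.036. With the mean of all passing probe sets of a gene the log2 difference turned sign for Cdkn1a -0.0063, Ctsc 0.22, Hsp90b1 0.16, Npm1 -0.049 and Slc2a3 0.13. Leaving out each array in turn gave differences of -0.0080 to 0.086 for Fcgr3, -0.074 to 0.012 for Spi1 and -0.11 to 0.0097 for Trib1, which were not called with all arrays. The cause was not tested. Dim genes have the least signal over background, and the 4 arrays of a line limit the precision.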
